A study of Mus musculus with 15 samples.

Results

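Endou, Dpf3 and Aspg are 3 mouse genes that were chosen from the genotype difference in these same counts, in hippocampi of vehicle-treated mice. They are 3 of the 55401 genes in the count files and 3 of the 19536 genes with enough reads to be tested. Hippocampal RNA came from 15 female mice aged 18 to 20 months in 4 groups. The WT vehicle group (labelled Tg2576 -/-, n = 4) and the Tg2576 vehicle group (labelled Tg2576 +/+, n = 4) were given sesame oil for 5 weeks. The WT DHA group (Tg2576 -/-, n = 4) and the Tg2576 DHA group (Tg2576 +/+, n = 3) were given docosahexaenoic acid (DHA), an omega-3 fatty acid, at 450 mg/kg for 5 weeks. By the paper, the DHA was diluted in sesame oil and given daily into the stomach, so all 4 groups received the oil. Tg2576 mice carry human APP with the Swedish mutation under a prion promoter and develop amyloid plaques with age, and the WT mice were their transgene-negative littermates.

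Endou encodes an endoribonuclease that cuts RNA at uridines, and it has been studied mainly in B cells. Dpf3 encodes a double PHD finger protein (also called BAF45c) that reads modified histone tails as a subunit of the BAF complex, the SWI/SNF chromatin remodeller; Dpf1, Dpf2 and Phf10 encode subunits that can take the same place. Aspg encodes an enzyme that hydrolyses asparagine and also acts on lysophospholipids, and it is counted among the genes that astrocytes turn on when they become reactive. Reactive astrocytes, which enlarge and make more of the intermediate filaments Gfap and vimentin, surround amyloid plaques.

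On GRCm38, Endou (ENSMUSG00000022468.12) lies on chromosome 15 from 97711015 to 97731339 on the minus strand, with 2745 exonic bases. Dpf3 (ENSMUSG00000021221.15) lies on chromosome 12 from 83213745 to 83487716 on the minus strand, with 4225 exonic bases. Aspg (ENSMUSG00000037686.6) lies on the plus strand of the same chromosome from 112106679 to 112127559, with 3521 exonic bases. The reads of each gene were counted over all its exons, so the 3 annotated transcripts of Endou, the 7 of Dpf3 and the 8 of Aspg cannot be told apart. No exonic base of the 3 genes was shared with another annotated gene, so counting without regard to strand did not add reads of an annotated antisense gene. The span of Aspg also holds the microRNA genes Mir3073a and Mir3073b, which had 0 counts in every mouse.

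RefSeq promoter windows (250 bases before to 50 after the start, GRCm38.p6) were found for 2 of the 3 genes, the 2 on chromosome 12, and are shown because these genes differed in opposite directions. The window of Dpf3 is chr12:83487687-83487986 (minus strand) and that of Aspg is chr12:112106433-112106732 (plus strand). Capitals mark matches to CCAAT or GGGCGG on either strand.
Dpf3: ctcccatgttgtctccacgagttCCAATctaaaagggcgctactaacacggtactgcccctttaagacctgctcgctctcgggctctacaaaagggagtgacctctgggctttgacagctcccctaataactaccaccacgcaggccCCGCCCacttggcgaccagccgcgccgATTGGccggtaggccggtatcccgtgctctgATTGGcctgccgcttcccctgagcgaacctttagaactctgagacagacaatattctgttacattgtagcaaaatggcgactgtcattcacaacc
Aspg: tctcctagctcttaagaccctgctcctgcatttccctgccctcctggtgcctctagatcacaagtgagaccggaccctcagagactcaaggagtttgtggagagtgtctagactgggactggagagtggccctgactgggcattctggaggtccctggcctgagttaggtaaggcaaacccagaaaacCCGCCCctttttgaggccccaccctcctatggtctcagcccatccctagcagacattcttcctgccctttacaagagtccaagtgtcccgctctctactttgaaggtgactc
The Dpf3 window held 3 matches to CCAAT and 1 to GGGCGG, and the Aspg window held 1 to GGGCGG. No match to the TATA box (TATAAA), the AP-1 motif (TGANTCA), the STAT motif (TTCNNNGAA) or the cyclic AMP response element (TGACGTCA) was found in either window on either strand. Of 32851 mouse promoter windows of this length, 37.4% held the CCAAT box, 35.7% the GC box (GGGCGG), 13.6% the TATA box, 7.81% the AP-1 motif, 8.30% the STAT motif and 1.79% the cyclic AMP response element. The windows had the same GC content (55.3%, against a median of 52.7%), but the Dpf3 window held 17 CpG dinucleotides and the Aspg window 3, against a median of 7. A match is a run of letters, and no binding was measured here.

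Read totals over genes ranged from 17372864 to 46596489 per mouse (median 25645977). Levels are CPM, read counts relative to library size with the libraries scaled by TMM, and comparisons of levels between genes are per kilobase of exon. App, whose count includes reads of the human transgene where they align, checked the labels. WT vehicle mice averaged 1703 ± 86.5 CPM of App (SD, n = 4), WT DHA mice 1641 ± 64.3 (n = 4), Tg2576 vehicle mice 2342 ± 221 (n = 4) and Tg2576 DHA mice 2542 ± 251 (n = 3), and every Tg2576 mouse lay above every WT mouse. Pyramidal and dentate granule cell markers were detected in every library, as the label hippocampus asks. In bulk tissue, fewer cells of a type and less RNA per cell cannot be told apart.

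All 3 genes were expressed at low to middling levels. Averaged over the 15 mice, Endou had 2.07 CPM (above 29.1% of the genes tested), Dpf3 7.22 (above 43.1%) and Aspg 12.9 (above 50.6%). In WT vehicle mice the level per kilobase was 0.391 CPM for Endou, 2.40 for Dpf3 and 2.28 for Aspg. In Tg2576 vehicle mice the order changed, with 1.10 CPM per kilobase for Endou, 1.10 for Dpf3 and 5.44 for Aspg.

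Endou was lowest in WT vehicle mice and highest in Tg2576 vehicle mice, with the DHA groups of both genotypes in between. The 4 WT vehicle mice had 1.03, 1.02, 0.946 and 1.29 CPM, from 48, 21, 28 and 43 reads. The 4 Tg2576 vehicle mice had 3.86, 2.23, 3.35 and 2.68 CPM, from 68, 69, 78 and 66 reads. The highest WT vehicle mouse therefore lay below the lowest Tg2576 vehicle mouse. The WT DHA mice had 2.02, 1.69, 2.07 and 1.82 CPM, all above the WT vehicle mice and all below the Tg2576 vehicle mice. The 3 Tg2576 DHA mice had 2.52, 2.01 and 2.44 CPM. This range overlapped that of the WT DHA mice at its lower end and that of the Tg2576 vehicle mice at its upper end. WT vehicle mice averaged 1.07 ± 0.152 CPM (SD, n = 4), WT DHA mice 1.90 ± 0.178 (n = 4), Tg2576 vehicle mice 3.03 ± 0.720 (n = 4) and Tg2576 DHA mice 2.32 ± 0.274 (n = 3). Read counts set the precision of Endou: counting error gave a coefficient of variation of 16.9% in WT vehicle and 15.1% in WT DHA mice, where the mice themselves varied by 14.2% and 9.35%. In Tg2576 vehicle mice the spread was 23.7%, above the 11.9% that counting gives.

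Dpf3 followed the opposite order, highest in WT vehicle and lowest in Tg2576 vehicle mice. The WT vehicle mice had 9.93, 13.4, 7.84 and 9.39 CPM, from 461, 278, 232 and 312 reads. The Tg2576 vehicle mice had 4.09, 5.07, 5.03 and 4.43 CPM, from 72, 157, 117 and 109 reads, and all lay below the lowest WT vehicle mouse. The WT DHA mice, at 9.20, 7.08, 6.67 and 7.92 CPM, overlapped the WT vehicle mice. The Tg2576 DHA mice, at 6.33, 5.05 and 6.78 CPM, overlapped both the Tg2576 vehicle and the WT DHA mice. Ordered by their means, neighbouring groups thus overlapped throughout, from 10.1 ± 2.37 CPM (SD, n = 4) for WT vehicle mice through 7.72 ± 1.12 (n = 4) for WT DHA mice and 6.05 ± 0.895 (n = 3) for Tg2576 DHA mice to 4.65 ± 0.479 (n = 4) for Tg2576 vehicle mice. The spread of 23.3% in WT vehicle mice exceeded the 5.58% of counting error, and 1 mouse (replicate 2) stood above the others.

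Aspg was higher in Tg2576 than in WT mice under vehicle, the comparison it was chosen by, and also under DHA. The WT vehicle mice had 6.91, 6.29, 9.76 and 9.18 CPM, from 321, 130, 289 and 305 reads. The Tg2576 vehicle mice had 18.5, 15.7, 17.9 and 24.6 CPM, from 326, 485, 416 and 605 reads. No mouse of one group reached the range of the other. With DHA, the WT mice had 6.74, 8.18, 10.1 and 10.4 CPM and the Tg2576 mice 12.2, 21.1 and 15.9 CPM. These ranges did not overlap either, as for 8.56% of all genes tested. Within each genotype, the vehicle and DHA ranges overlapped. WT vehicle mice averaged 8.04 ± 1.69 CPM (SD, n = 4), WT DHA mice 8.85 ± 1.72 (n = 4), Tg2576 vehicle mice 19.2 ± 3.82 (n = 4) and Tg2576 DHA mice 16.4 ± 4.49 (n = 3). The spread within groups was 19.4% to 27.4%, against 4.53% to 7.0% from counting, so differences between mice rather than read depth limited its precision.

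**Figure D1:**
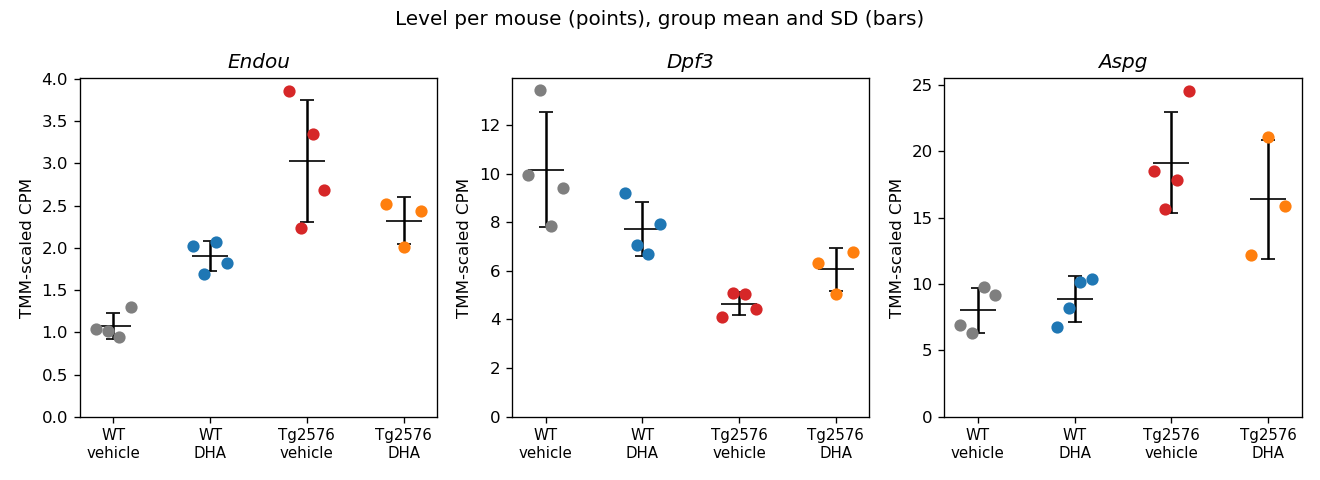
Level of Endou, Dpf3 and Aspg in TMM-scaled CPM (y axis, from 0, with a scale of its own in each panel) in each mouse (points) of the 4 groups (x axis), with the group mean and SD as black bars. The vehicle groups are those the genes were chosen by. The DHA groups do not overlap for Aspg, as for 8.56% of all genes tested, and overlap for Endou and Dpf3.

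The genotype difference under vehicle is the one the genes were chosen by, and its values are given as a description. The log2 fold change (Tg2576 over WT) was 1.49 (standard error 0.225) for Endou, a level 2.80 times as high. It was -1.12 (0.175) for Dpf3, 2.17 times lower, and 1.25 (0.199) for Aspg, 2.38 times as high. These were the genes with an adjusted p under 0.05 in that comparison, 0.0154% of the genes tested. The protocadherin gene Pcdhb4, which was not among them, had -1.04 (0.185). Among all genes tested, 3.09% had an unadjusted p under 0.01, the threshold of the study, and 1.16% were higher in Tg2576 at that threshold. Groups did not overlap for 5.16%; nothing is read from this for genes chosen by this contrast.

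The DHA-treated mice were not used to choose the genes, and there the genotype difference was tested with edgeR's quasi-likelihood test. Aspg was higher in Tg2576 DHA than in WT DHA mice by a log2 fold change of 0.89 (standard error 0.212, 95% interval 0.45 to 1.34), a level 1.86 times as high. The unadjusted p was 5.6e-04, which passed the threshold of 0.01 and ranked Aspg 28 among all genes, and the Benjamini-Hochberg adjusted p was 0.390, which did not pass 0.05. All 3 Tg2576 mice lay above all 4 WT mice, and the exact two-sided permutation test gave p = 0.0571, the smallest that 4 mice against 3 allow. Dpf3 had a log2 fold change of -0.35 (0.188, 95% interval -0.75 to 0.05, p = 0.0789, adjusted p = 0.768; exact permutation p = 0.114). Endou had 0.29 (0.236, 95% interval -0.21 to 0.79, p = 0.237, adjusted p = 0.847; exact permutation p = 0.171). Neither passed the threshold, and for each the genotypes overlapped.

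Thus 1 of the 3 genes was called under DHA, against a background of 1.75% of all genes tested, and 1.06% higher in Tg2576. For 1 of the 3 the DHA groups did not overlap, as for 8.56% of all genes. In size, the difference of Aspg exceeded that of 95.5% of all genes tested, that of Dpf3 79.4% and that of Endou 74.2%. The signs were those seen under vehicle for all 3 genes. The estimate under DHA was 0.713 of that under vehicle for Aspg, 0.314 for Dpf3 and 0.195 for Endou on the log2 scale. Because the vehicle mice chose the genes, these ratios have no test. Choosing by a large vehicle difference favours ratios under 1, so nothing is read from them.

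**Figure D2:**
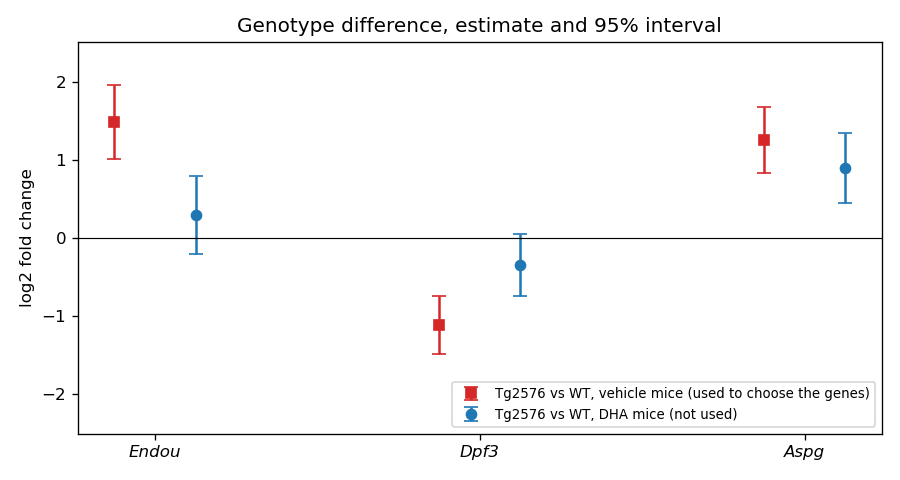
Log2 fold change of Tg2576 over WT (y axis) for the 3 genes, with 95% intervals, in vehicle mice (red squares, the values the genes were chosen by) and DHA mice (blue circles). Under DHA the interval of Aspg lies above 0 (0.45 to 1.34), and those of Endou and Dpf3 include 0.

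The effect of DHA within each genotype is also a description, since it rests on the vehicle mice that chose the genes. In WT mice the log2 fold change of DHA over vehicle was 0.82 (standard error 0.227) for Endou, -0.39 (0.172) for Dpf3 and 0.14 (0.200) for Aspg. The WT groups did not overlap for Endou and overlapped for Dpf3 and Aspg; over all genes tested 5.02% did not overlap, and nothing is read from this since the WT vehicle mice helped to choose the genes. In Tg2576 mice the values were -0.38 (0.235) for Endou, 0.37 (0.189) for Dpf3 and -0.22 (0.211) for Aspg, with overlapping groups for all 3, where 3.21% of all genes did not overlap. The sign in Tg2576 mice was opposite to that in WT mice for each gene. Choosing genes by a large vehicle difference favours such opposite signs, so nothing is read from them. The difference between the effects (interaction) was -1.20 (0.327) for Endou, 0.77 (0.255) for Dpf3 and -0.36 (0.290) for Aspg.

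RNA of the choroid plexus, the tissue that makes cerebrospinal fluid beside the hippocampus, varied widely between libraries. The summed level of 8 plexus markers, among them Ttr, was 90.4 to 3741 CPM in WT vehicle, 62.1 to 5868 in WT DHA, 142 to 3193 in Tg2576 vehicle and 3128 to 5179 in Tg2576 DHA mice. It was thus high in all 3 Tg2576 DHA mice and in a single WT DHA mouse (replicate 3), which had 10.1 CPM of Aspg, 2.07 of Endou and 6.67 of Dpf3. None of the 8 markers was called in any of the 4 comparisons, where 0.353% to 3.09% of all genes tested were. With that WT DHA mouse left out, the genotype difference of Aspg under DHA was 0.96 (adjusted p = 0.419) and Aspg was still called. Among the DHA mice that remained, plexus RNA was high only in Tg2576 mice, so plexus and genotype cannot be told apart there. The part of plexus RNA in the levels of the 3 genes was not tested.

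Aspg was set beside 12 other pan-reactive astrocyte genes, which are raised in reactive astrocytes after injury of several kinds. Under vehicle 5 of the 12 rose in Tg2576 mice and 0 fell, where 1.16% of all genes were higher; all 12 had a positive estimate and the median log2 fold change was 0.67, against 0.00 over all genes tested. Under DHA 3 of the 12 rose and 0 fell, where 1.06% of all genes were higher, again with 12 positive estimates and a median of 0.77 against -0.00 over all genes. Gfap, the main intermediate filament of astrocytes, was 581 CPM in WT vehicle and 1178 in Tg2576 vehicle mice (log2 fold change 1.02, standard error 0.181), and 619 and 1245 CPM in the DHA groups (1.01, standard error 0.192, adjusted p = 0.253). Vim, the filament vimentin, rose by 0.80 under vehicle and by 0.85 under DHA, and Osmr, the oncostatin M receptor, by 0.85 and 1.02. The secreted Lcn2 (1.99) and the protease inhibitor Serpina3n (0.69) rose under vehicle, and their estimates under DHA were 1.34 (adjusted p = 0.604) and 0.31 (adjusted p = 0.792). Under DHA the estimate of Aspg (0.89) lay within the range of these genes. Its vehicle value is the one it was chosen by and is not compared. DHA called none of the 12 in WT or Tg2576 mice, where it called 1.38% and 0.353% of all genes tested.

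Markers of astrocytes in general were not called. Of 10 such genes 0 were called in any comparison, where 0.353% to 3.09% of all genes tested were. A count this small is near the background, and nothing is read from it. The medians for genotype were -0.02 (vehicle) and 0.04 (DHA). The summed level of these 10 genes was 4215 to 5390 CPM in WT vehicle, 4151 to 4574 in WT DHA, 3793 to 4719 in Tg2576 vehicle and 3931 to 4660 in Tg2576 DHA mice. The summed level of the 12 reactive genes, in contrast, was 684 to 826 and 602 to 894 CPM in the WT groups and 1073 to 1728 and 1170 to 1964 CPM in the Tg2576 groups, without overlap between the genotypes. Most of this sum was Gfap. The other 11 genes summed to 142 to 158 CPM (WT vehicle) against 217 to 264 (Tg2576 vehicle), and to 102 to 205 (WT DHA) against 201 to 279 (Tg2576 DHA), which overlapped under DHA. Markers of meningeal fibroblasts also had higher estimates in Tg2576 mice, 6 of 7 under vehicle (median 0.55) and 7 of 7 under DHA (median 0.60). Of these markers 0 were called, where 3.09% (vehicle) and 1.75% (DHA) of all genes tested were. Their summed level was 28.9 to 58.6 CPM in WT vehicle, 35.8 to 76.4 in WT DHA, 24.8 to 108 in Tg2576 vehicle and 41.7 to 110 in Tg2576 DHA mice, with overlap between the genotypes. Their part in the level of Aspg was not tested.

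**Figure D3:**
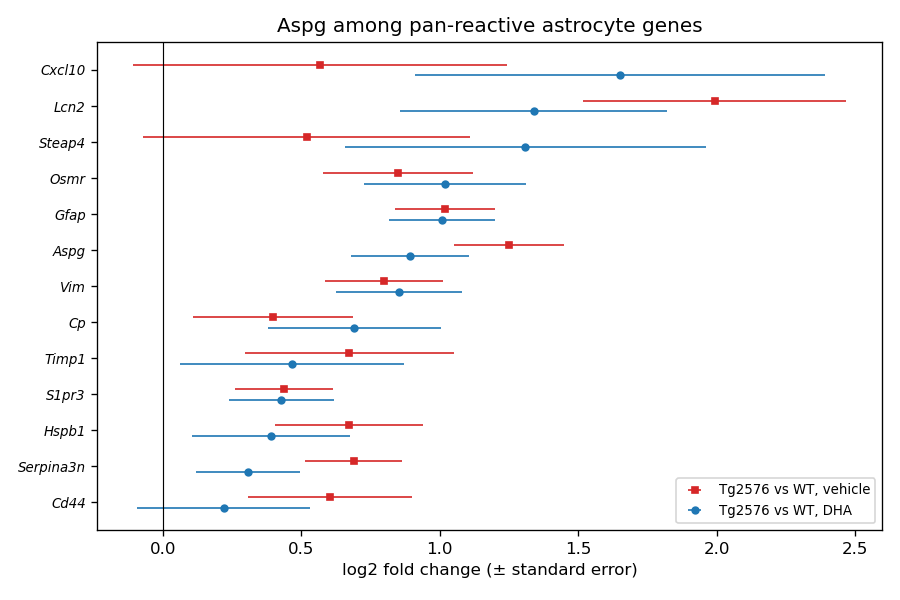
Log2 fold change of Tg2576 over WT (x axis, with standard errors) for Aspg and 12 other pan-reactive astrocyte genes (y axis, ordered by the value under DHA), in vehicle mice (red squares) and DHA mice (blue circles). All estimates are positive, and Gfap is near 1 under both treatments. The vehicle value of Aspg is the one it was chosen by.

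Other genes of the same metabolism as Aspg were examined. Of 22 other genes of asparagine and aspartate metabolism, 0 were called under vehicle and 1 under DHA. Over all genes tested, 3.09% were called under vehicle and 1.75% under DHA. The gene called was Aga, a lysosomal enzyme that splits asparagine from sugar in degraded glycoproteins. It rose from 3.32 to 5.85 CPM (log2 fold change 0.82, standard error 0.244, adjusted p = 0.536). Asns, which makes asparagine, had log2 fold changes of 0.06 and 0.10 under vehicle and DHA. Asrgl1, another asparaginase, had 191 CPM in WT vehicle mice and log2 fold changes of -0.10 and -0.09. Of 26 other genes of lysophospholipid metabolism, 0 were called under vehicle and 1 under DHA, the phospholipase Pla2g6, which fell by 0.37 (adjusted p = 0.548). Counts this small are near the background in both lists, and nothing is read from them. DHA called 0 of the genes of either list in WT and in Tg2576 mice, where it called 1.38% and 0.353% of all genes tested.

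Few of the other 30 subunits of the BAF complexes were called. Under vehicle 0 rose and 2 fell, where 1.93% of all genes tested were lower. These were Smarca4, the ATPase of the complex, by 0.21 (standard error 0.0702) and the zinc finger subunit Bcl11b by 0.33 (0.104). Under DHA 0 rose and 1 fell, Smarca4 by 0.24 (0.0761, adjusted p = 0.551), where 0.686% of all genes were lower. The medians were -0.08 and -0.09, and 12 and 6 of the 30 had positive estimates. The subunits that can stand in for Dpf3 were not called. Dpf1, the other neuronal form, was 59.0 CPM in WT vehicle and 70.5 in Tg2576 vehicle mice (0.26, adjusted p = 0.390) and had -0.14 under DHA. Dpf2 had -0.09 and -0.07, and Phf10, the form of neural progenitors, 0.02 and -0.00. DHA called none of the 30 in WT or Tg2576 mice, where it called 1.38% and 0.353% of all genes tested.

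**Figure D4:**
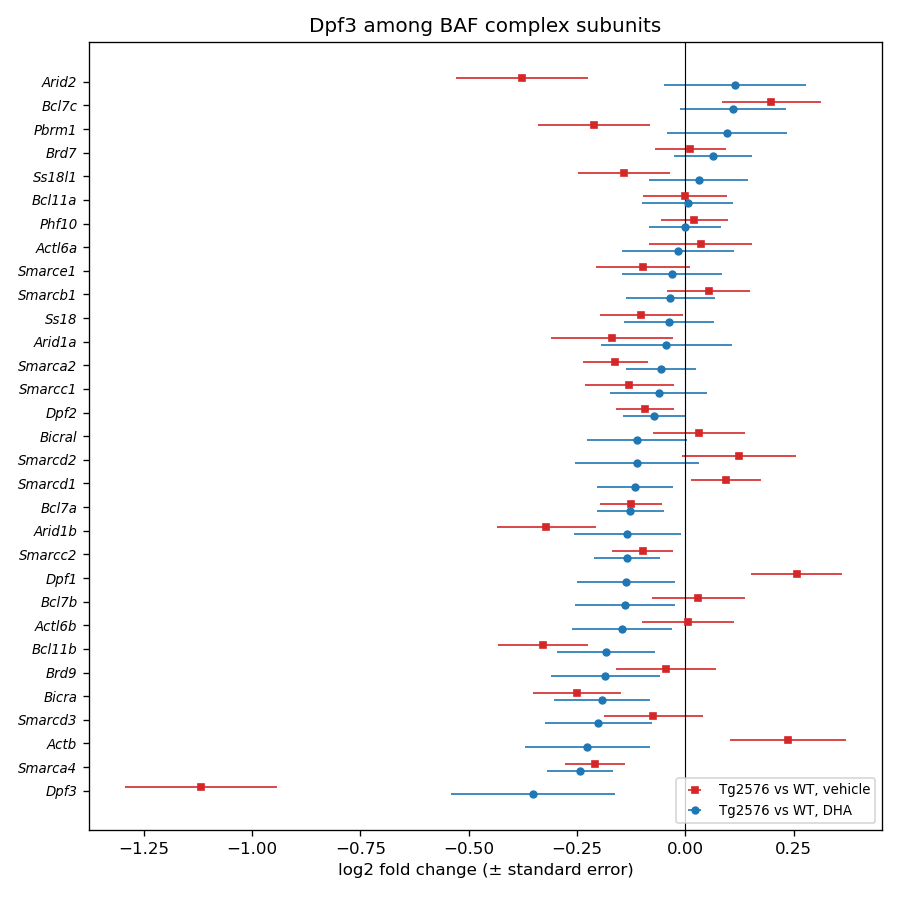
Log2 fold change of Tg2576 over WT (x axis, with standard errors) for Dpf3 and 30 other BAF subunits (y axis, ordered by the value under DHA), in vehicle mice (red squares) and DHA mice (blue circles). The vehicle value of Dpf3 (-1.12) is the one it was chosen by, and Smarca4 is below 0 under both treatments.

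Some neuronal markers were lower together with Dpf3 under vehicle. Of 8 dentate granule cell markers 3 fell, Prox1 (-0.46), Trpc6 (-0.54) and Npnt (-0.40), with a median of -0.43, against 1.93% of all genes lower and a median of 0.00. Of 9 interneuron markers Gad1 (-0.28) and Gad2 (-0.42) fell, and of 9 pyramidal markers Nr3c2 (-0.46). The summed dentate level was 389 to 488 CPM in WT vehicle and 294 to 378 in Tg2576 vehicle mice. Under DHA 1 dentate marker (Lct, -0.98), 0 interneuron markers and 2 pyramidal markers (Wfs1, -0.40, and Slc17a7, -0.32) fell, against 0.686% of all genes. These calls are at the unadjusted p of 0.01, and none of these neuronal markers had an adjusted p under 0.05. Lower estimates were not limited to neurons: of 5 oligodendrocyte precursor markers 0 were positive under vehicle (median -0.31) and 2 under DHA (median -0.20). Of these 0 were called, where 3.09% (vehicle) and 1.75% (DHA) of all genes tested were. Their summed level was 204 to 230 CPM in WT vehicle and 149 to 197 in Tg2576 vehicle mice. With DHA it was 183 to 217 in WT and 174 to 188 in Tg2576 mice. The part of all these cells in the difference of Dpf3 was not tested.

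For Endou, 28 other endoribonuclease genes were examined, with median genotype differences of -0.02 under vehicle and 0.03 under DHA. In any of the 4 comparisons 0 were called, near the background of 0.353% to 3.09% of all genes tested. Of 8 B cell markers 5, among them Cd79b, Ms4a1, Pax5 and Blk, were below the filter on low counts, and of the other 3 none was called. Cd79a, part of the B cell receptor, averaged 0.219 CPM in WT vehicle and 0.448 in Tg2576 vehicle mice, and Jchain 1.09 and 1.01. Ighm, the IgM heavy chain, was at 30.9 and 31.7 CPM, and 25.8 and 23.5 in WT DHA and Tg2576 DHA mice. The part of B cells in the level of Endou was not tested.

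Genes on either side were examined for each of the 3. Within 1 Mb of Endou 26 genes were tested and 0 were called under either treatment. The nearest were Rpap3 (-0.04 under vehicle) and Pced1b (0.24) on one side, and Rapgef3 (0.06) and Rapgef3os2 (1.18, standard error 0.487, adjusted p = 0.395) on the other. Within 1 Mb of Dpf3, 2 of 33 genes fell under vehicle, Sipa1l1 (-0.38) and Ptgr2 (-0.42), and 0 were called under DHA. The nearest to Dpf3, Rgs6 (0.29), Dcaf4 (-0.00) and Zfyve1 (-0.05), were not called. Within 1 Mb of Aspg, 2 of 48 genes fell under vehicle, Inf2 (-0.33) and Pacs2 (-0.25), and 1 rose under DHA, the translation factor gene Eif5 (0.31). Next to Aspg, Tdrd9 (0.42), Rd3l (0.41), Kif26a (0.09) and A530016L24Rik (0.67) were not called under vehicle. Over all genes tested 3.09% were called under vehicle and 1.75% under DHA, so the counts of called neighbours were near the background.

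**Figure D5:**
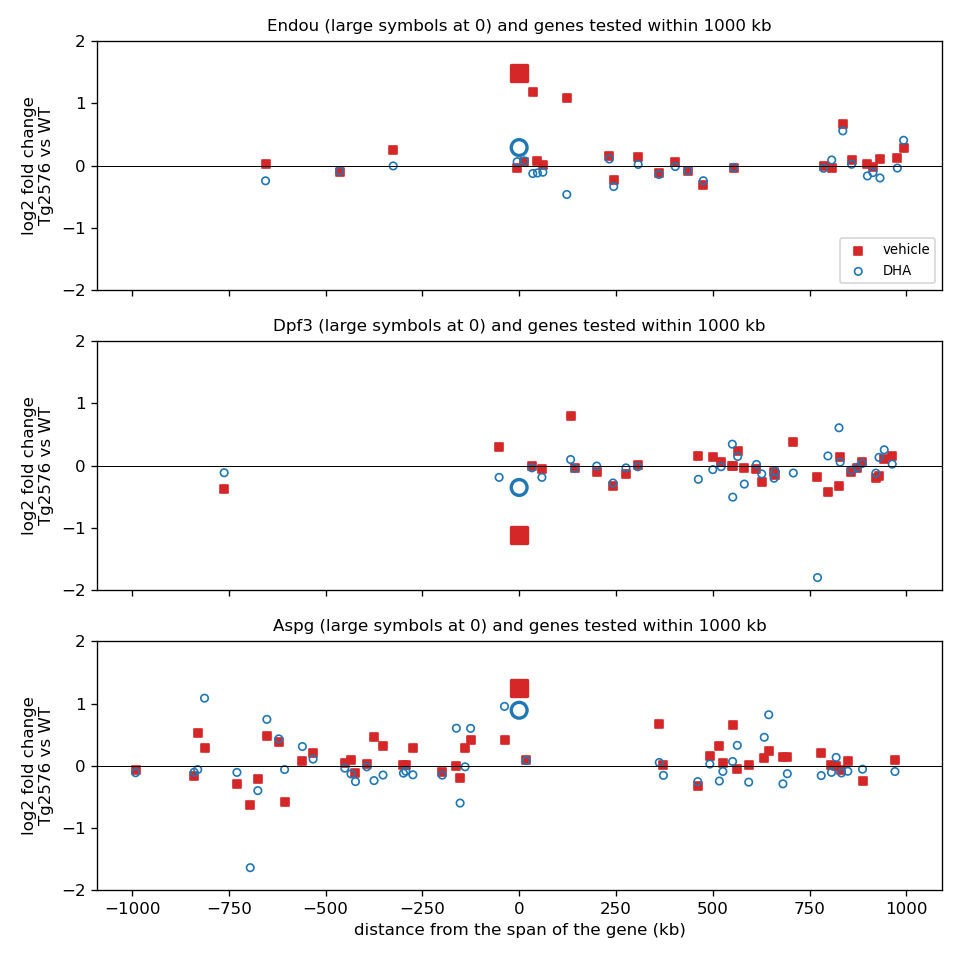
Log2 fold change of Tg2576 over WT (y axis) against the distance in kb from the span of Endou, Dpf3 or Aspg (x axis) for all genes tested within 1 Mb, in vehicle mice (filled red squares) and DHA mice (open blue circles). Large symbols at 0 are the 3 genes themselves, whose vehicle values were those they were chosen by; of the genes around them, 4 were called under vehicle and 1 under DHA.

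Variation among mice of the same group was compared between genes, on log2 CPM centred on the group means over the 15 mice and 15477 genes of at least 1 CPM. Endou varied most like Galns (Pearson r = 0.883), Rbmx2 (0.863) and Zfp13 (0.823). Among the genes most like Dpf3 were Carnmt1 (0.875) and Pnmal1 (0.868), and Aspg varied most like Thap4 (0.877), Clip3 (0.868) and Spata1 (0.865). These are the highest of many correlations over mice that share library depth and tissue composition, and are a description only. Among the 3 genes themselves, Dpf3 and Aspg varied in opposite directions within groups (r = -0.716, Spearman rho = -0.682), while Endou varied with neither (0.003 with Dpf3 and -0.085 with Aspg). Aspg had r = 0.578 with Serpina3n and 0.229 with Gfap.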

How the data were processed

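Hippocampal RNA of 15 mice was sequenced. The deposited files hold raw read counts per gene, which the authors made with featureCounts 1.6.0 at its defaults (reads of several places or genes left out, no strand setting) on GENCODE M25 of GRCm38. The submitters' processing notes also name FastQC 0.11.8 and STAR 2.6.1c. The paper (a stranded kit) and the labels (a SMARTER kit) name different library kits. Symbols came from GENCODE M21.

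Counts were analysed with R 4.3.3 and edgeR 4.0.16: filterByExpr (minimum count 10) kept 19536 genes, TMM factors ranged from 0.961 to 1.03, and a robust quasi-likelihood model with 4 group coefficients was fitted to all 15 mice. The common biological coefficient of variation was 20.1%. Tests were two-sided, at an unadjusted p of 0.01 as in the study, with Benjamini-Hochberg adjusted p values beside it. Standard errors are the log2 fold change over the square root of F. Exact permutation tests used log2 CPM (prior count 2). The 3 genes and the gene lists were chosen with earlier results of these data known. Named genes were, for each list, at most 3 of lowest p under 0.01 per genotype comparison, the nearest 2 on each side, the 3 most alike, and those tied to the roles of the 3 genes; neighbours called within 1 Mb were named after their values were seen. A few genes that meet this rule are not reported here. Replicates are only numbered in the labels, so p values measure the spread between these samples. The workflow was tested on simulated data. Alternatives were DESeq2 1.42.0, limma-voom (limma 3.58.1), other scalings, filters and fits, the replicate number as a block, and each mouse left out.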

Additional observations from a re-analysis of the deposited data

How the results depend on the processing

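The genotype differences of Endou, Dpf3 and Aspg under DHA kept their direction and their side of the threshold of 0.01 under 9 other settings and with each of the 15 mice left out. For Aspg, p ranged from 6.7e-05 to 0.00142 under the other settings and from 1.3e-04 to 0.00845 with a mouse left out, the highest without Tg2576 DHA replicate 2 (log2 fold change 0.67). Its adjusted p ranged from 0.0367 (DESeq2, the 1 setting under 0.05) to 0.860. For Dpf3, p ranged from 0.0698 to 0.103 and from 0.0563 to 0.280, and for Endou from 0.182 to 0.330 and from 0.168 to 0.411. Under vehicle the log2 fold change stayed within 1.35 to 1.61 for Endou, -1.22 to -0.95 for Dpf3 and 1.12 to 1.36 for Aspg.

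The number of genes called is less stable. Under vehicle it was 604, with 493 to 825 under other settings and 312 to 965 with a mouse left out (965 without Tg2576 vehicle replicate 1, 399 and 400 without its replicates 3 and 4, 377 and 312 without WT vehicle replicates 1 and 2). Under DHA it was 342, with 246 to 485 and 190 to 460 (222 when replicate 3 of Tg2576 DHA was left out, 190 when replicate 4 of WT DHA was). Without TMM factors the split was 303 higher and 269 lower under vehicle, in place of 226 and 378, and 271 higher and 72 lower under DHA, in place of 208 and 134. The counts of pan-reactive astrocyte genes called, an alternative added after the data were seen, were 4 to 6 under vehicle and 2 to 4 under DHA. The cause of these shifts was not tested.

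Replicate numbers are shared between groups, but same-numbered mice did not deviate together (21 pairs, r from -0.244 to 0.213, 4 over 0.1; 5 of the 15 mice correlated best with their own number). With the replicate number as a block, p was 6.9e-05 for Aspg, 0.103 for Dpf3 and 0.251 for Endou under DHA, the vehicle log2 fold changes were 1.25, -1.11 and 1.48, and 661 and 246 genes were called under vehicle and DHA.

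Depth limits Endou most, with 21 to 78 reads per mouse.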

Other observations

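Some microglial genes were also called between the genotypes at the unadjusted p of 0.01, and 0 had an adjusted p under 0.05. Over all genes tested, 1.16% were higher in Tg2576 mice under vehicle and 1.06% under DHA at that unadjusted threshold. Of 12 genes of plaque-associated microglia 3 rose in Tg2576 mice under vehicle, the cystatin Cst7 (log2 fold change 3.02), the lysosomal Cd68 (0.85) and the signalling adaptor Tyrobp (0.93), and 5 rose under DHA, among them Cst7 (3.40), Cd68 (1.13) and the integrin Itgax (2.04). Of 10 general microglial markers 0 were called under vehicle and 4 rose under DHA, among them the growth factor receptor Csf1r (0.42) and the fractalkine receptor Cx3cr1 (0.49). Their summed level was 366 to 421 CPM in WT vehicle, 315 to 383 in WT DHA, 356 to 517 in Tg2576 vehicle and 400 to 558 in Tg2576 DHA mice. The part of these cells in the levels of Endou, Dpf3 and Aspg was not tested.

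Of the markers of other cells and regions, 1 of 6 endothelial genes (Ly6c1, 0.59) rose and 1 of 7 thalamic genes (Adarb1, -0.33) fell under vehicle, and 1 thalamic gene (Prkcd, -0.58) fell under DHA. Over all genes tested, 1.16% were higher and 1.93% lower under vehicle, and 0.686% were lower under DHA. None of these markers had an adjusted p under 0.05, and nothing is read from single genes. In the genotype comparisons 0 of 8 oligodendrocyte, 5 oligodendrocyte precursor, 6 ependymal, 7 meningeal, 8 striatal, 7 neocortical and 5 subicular markers were called. Over all genes tested, 3.09% were called under vehicle and 1.75% under DHA.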
